A study of Drosophila melanogaster with 3 samples.

Results

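The genes described here are 10 regulators of the Drosophila melanogaster gut, namely srp, GATAe, nub, esg, bowl, drm, odd, byn, cad and bin, out of 13968 protein-coding genes on the chromosome arms. They were listed by name for their known roles in the foregut, midgut, hindgut and gut progenitor cells, and binding of the forkhead protein fkh around them was read from deposited ChIP-seq peak lists. The chromatin came from whole prepupae of a transgenic line in which fkh is fused to eGFP at its C-terminal end, it was precipitated with an antibody to GFP, and there was 1 group of 3 biological replicates, each pooling males and females. The labels give an age of 24 days, a unit that is doubtful for a prepupa, and an insertion that targets fkh, but not the promoter behind the fusion gene nor whether untagged fkh was present. With whole animals, fewer cells with a bound site and weaker binding in each cell cannot be told apart, and no summit can be placed in the gut.

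fkh is the fly member of the FoxA branch of forkhead factors, which bind a short AT-rich core and are known for their part in gut formation in many animals. In the fly embryo fkh is needed for the foregut and hindgut. srp and GATAe are GATA zinc finger factors that act one after the other in the endoderm, byn is the fly Brachyury and cad the fly Caudal, both of the hindgut, and drm, bowl and odd are zinc finger genes of the odd-skipped family that pattern the foregut and hindgut. nub is a POU factor of midgut enterocytes, esg a Snail-type factor of gut progenitors, and bin the FoxF-type forkhead gene of the muscle layer around the gut.

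Each gene had between 3 and 13 summits of the authors' optimal list in its body or within 10 kb of it, where 69.4% of all protein-coding genes had at least 1 and 41.2% at least 3. A summit is the position of the highest signal in a peak, and the optimal list holds the 9531 peaks that the authors kept after a reproducibility step on the 3 replicates. In all, 49 distinct summits in 47 intervals were found, and 8 of them lay within reach of both srp and GATAe. Their signal, a strength on the authors' own scale, ran from 160.7 to 923.9 with a median of 327.9, against a median of 294.1 and a maximum of 6080.8 over the whole optimal list. The highest of the 49, in cad, stood at place 558 of the 9531 by signal. The lists give no read counts, so depth is unknown and the exact 95% intervals below cover counting error only.

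The sequences under the strongest summit of each gene show how they differ at the base level. Each runs from 50 bases before to 50 bases after the summit on the plus strand of dm6 (release 6 assembly, RefSeq sequence), and capitals mark the forkhead word, TNTTTNN with A or G at positions 2 and 6 and C or T at position 7, on either strand. Overlapping words run together. Those of cad, byn, bowl, drm, srp, esg and odd hold the word.
cad, chr2L:20780901-20781001: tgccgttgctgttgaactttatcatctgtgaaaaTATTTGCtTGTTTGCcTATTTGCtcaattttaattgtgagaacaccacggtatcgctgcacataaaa
byn, chr3L:11932800-11932900: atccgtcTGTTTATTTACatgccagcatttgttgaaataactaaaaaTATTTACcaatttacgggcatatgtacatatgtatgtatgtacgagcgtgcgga
bowl, chr2L:3777040-3777140: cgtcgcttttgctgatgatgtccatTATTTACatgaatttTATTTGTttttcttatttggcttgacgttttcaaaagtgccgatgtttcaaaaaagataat
drm, chr2L:3549029-3549129: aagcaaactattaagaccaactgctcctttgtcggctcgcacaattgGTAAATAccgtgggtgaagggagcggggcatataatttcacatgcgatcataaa
srp, chr3R:16007297-16007397: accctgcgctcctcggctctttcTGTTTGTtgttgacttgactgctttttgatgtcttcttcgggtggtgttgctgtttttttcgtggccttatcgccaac
esg, chr2L:15324239-15324339: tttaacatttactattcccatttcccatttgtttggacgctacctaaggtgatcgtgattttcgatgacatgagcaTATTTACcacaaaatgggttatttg
odd, chr2L:3611965-3612065: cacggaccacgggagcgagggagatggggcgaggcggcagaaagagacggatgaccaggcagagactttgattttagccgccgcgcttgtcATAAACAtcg
Those of GATAe, nub and bin hold none.
GATAe, chr3R:16025923-16026023: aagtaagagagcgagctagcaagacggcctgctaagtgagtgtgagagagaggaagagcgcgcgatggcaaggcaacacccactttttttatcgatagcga
nub, chr2L:12587037-12587137: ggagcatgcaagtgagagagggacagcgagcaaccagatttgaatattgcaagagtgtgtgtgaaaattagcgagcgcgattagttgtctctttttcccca
bin, chr3L:6989123-6989223: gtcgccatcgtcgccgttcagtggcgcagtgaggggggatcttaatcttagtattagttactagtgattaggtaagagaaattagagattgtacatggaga
A further pair, chosen after their values were seen, are among the 3 windows of the 49 with at least 4 words, and lie downstream of odd and between srp and GATAe.
odd downstream, chr2L:3599661-3599761: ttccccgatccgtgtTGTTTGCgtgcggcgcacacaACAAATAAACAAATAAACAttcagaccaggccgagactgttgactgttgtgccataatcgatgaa
srp to GATAe, chr3R:16006081-16006181: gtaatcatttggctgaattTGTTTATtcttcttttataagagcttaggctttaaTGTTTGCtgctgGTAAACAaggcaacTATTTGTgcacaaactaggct

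In the cad window 3 words followed each other on the same strand, each starting 8 bases after the one before. The outer ones read TATTTGC, the one between them read TGTTTGC, and the last was centred 3 bp from the summit. In the byn window a word was centred on the summit itself, and so was the single word of the drm window. The byn window also held a pair of overlapping words with starts 4 bases apart. The 5 words downstream of odd included 4 overlapping ones at steps of 4 bases, with the nearest centred 1 bp from the summit.

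**Figure D1:**
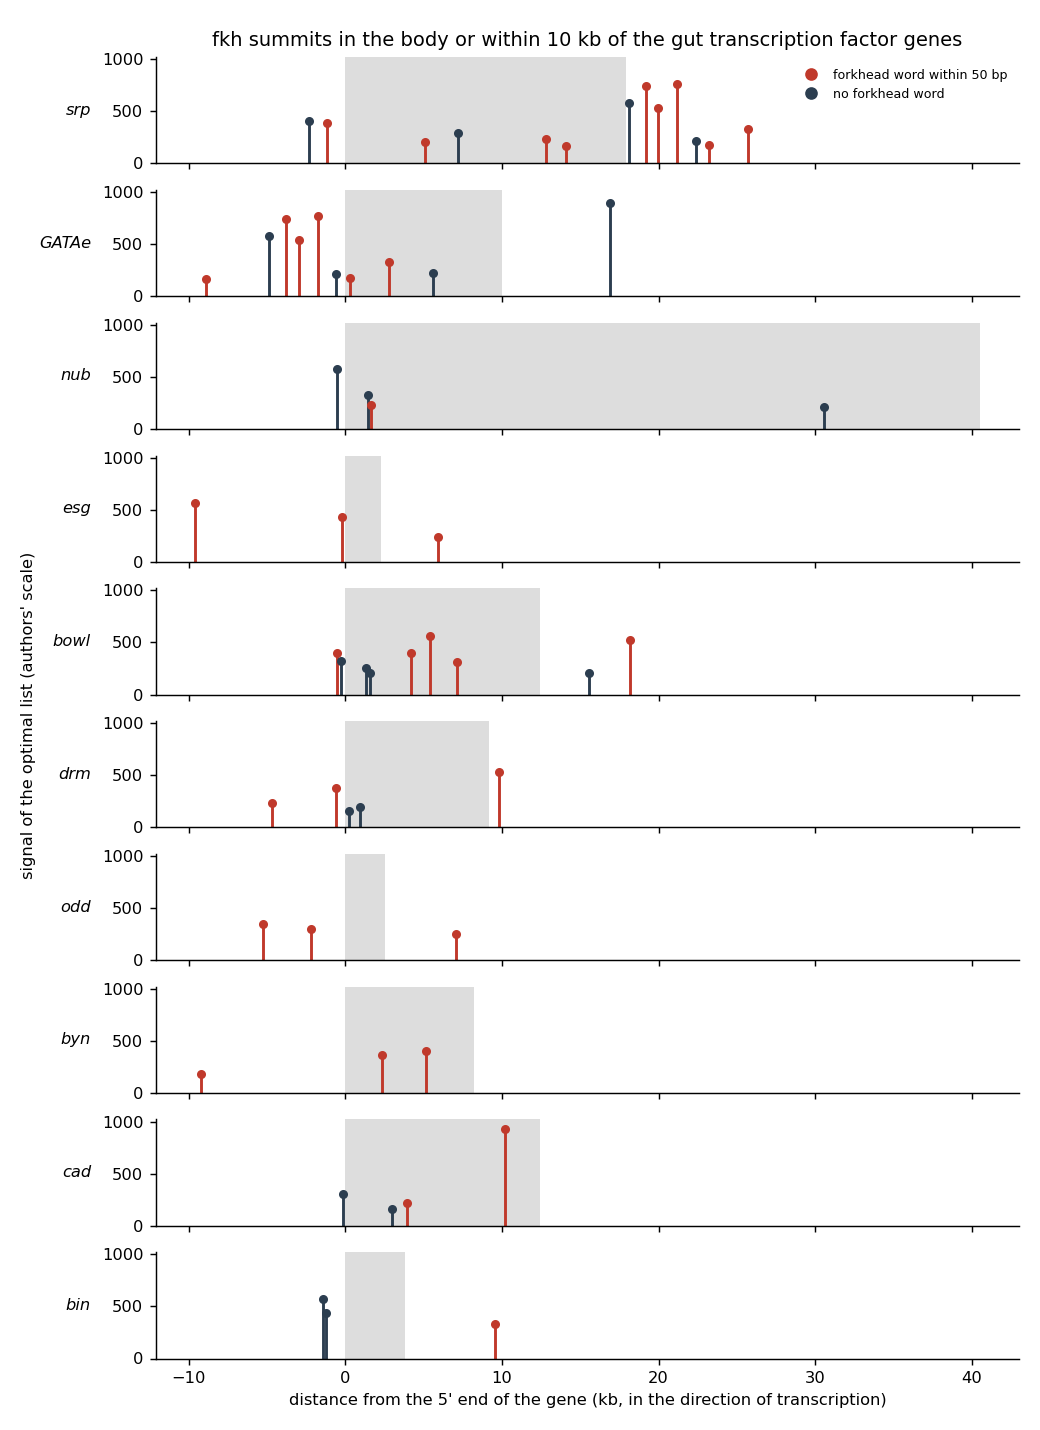
Each panel plots the signal of the optimal list (authors' scale) against the distance of the summit from the 5' end of 1 gene, in kb in the direction of transcription, with the gene body in grey. Red marks a forkhead word within 50 bp of the summit; the tallest stem is that in the cad body at 923.9, while esg, odd and bin have no summit in the body.

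Within the 10 kb window the midgut GATA genes carried the most summits. srp (FBgn0003507, 3R, 15986152 to 16004085, plus strand) had 13, which placed it at percentile 99.3 of the protein-coding genes and at 96.8 among genes of its own length class, 1 of 5 equal classes. GATAe (FBgn0038391, 3R, 16009105 to 16019133, plus strand) had 10, at percentile 97.8 and, within its length class, 91.8. The 5019 bp between the genes held 5 summits that count for both, so these are not independent. At 16007347, in an exon of the non-coding gene lncRNA:CR42839, the signal was 766.6 and the ranks in replicates 1, 2 and 3 were 727, 1417 and 1015. At 16005316, in the same non-coding gene, it was 743.2 with ranks of 703, 1459 and 1073. At 16006131, in its intron, it was 535.7 with ranks of 1766, 3124 and 1464. The non-coding gene thus held 3 of the 5 summits between srp and GATAe, the strongest included, and replicate 2 ranked each of these 3 lowest. At 16004233, 148 bp past the 3' end of srp, the signal was 577.9 and replicate 2 ranked the summit highest, at 1081 against 2263 and 2250 in replicates 1 and 3.

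Within the srp gene itself the summits were weaker. The 4 in its body ran from 169.2 to 292.7, and the strongest of them, at 15993319, lay in a 5' UTR, 821 bp from a transcription start site (TSS) of srp, where the non-coding gene lncRNA:CR44133 overlaps it. The intergenic summits 2315 and 1190 bp upstream of srp had signals of 406.4 and 385.7. In the GATAe body the strongest summit, 394 bp from a GATAe TSS at 16011880, had 332.6 and held ranks of 4036, 4988 and 4056. The others there had 221.4 in an intron and 174.4 at 286 bp from a TSS. The strongest summit in reach of GATAe lay 6840 bp past its end at 16025973, but 106 bp from the TSS of pnr, the next GATA factor gene along the chromosome. Its signal was 896.0 and its ranks were 850, 434 and 675. By the nearest protein-coding gene, 8 of the 13 summits belonged to srp and 5 of the 10 to GATAe, while bowl had 7. In the gene bodies alone bowl had 5 summits, srp 4 and GATAe 3. With a 5 kb window srp had 11 summits and GATAe and bowl 8 each, and with 20 kb they had 15, 13 and 10. The lead of srp thus depends on counting summits outside the gene body. That of GATAe over bowl depends also on summits nearer to other genes.

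nub, the POU gene of enterocytes (FBgn0085424, 2L, 12587625 to 12628135, plus strand), is the longest of the 10 at 40511 bp and had 4 summits. That placed it at percentile 74.6 of all protein-coding genes and at 59.5 within its length class, where the median was 3. The strongest lay 538 bp upstream of its 5' TSS, with a signal of 571.7 and ranks of 2155, 1649 and 1348. A further pair shared 1 interval in the first part of the gene, at 327.9 and 225.8, and the ranks of that interval spread from 2726 in replicate 1 to 9250 in replicate 3. The weakest, with 206.9, was 191 bp from an internal TSS of nub, where nub overlaps Ref2 on the other strand. Of the 4 summits, 1 held the forkhead word, the one with 225.8.

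esg, which marks gut progenitors (FBgn0287768, 2L, 15333866 to 15336138, plus strand), had 3 summits and none in its short body. The strongest lay 9577 bp upstream in intergenic sequence, nearer to the gene nht, with a signal of 565.4 and ranks of 1335, 2024 and 3402. At the promoter, 214 bp from the TSS, the signal was 432.4 and the ranks were 2040, 5137 and 2912. Downstream, 3652 bp from the gene, it was 233.9. All 3 esg summits held the forkhead word, and the strongest lies close to the limit of the 10 kb window.

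The odd-skipped family genes differed in number of summits. bowl (FBgn0004893, 2L, 3771700 to 3784121, plus strand) had 9, at percentile 96.8, or 89.0 within its length class. Its strongest was intronic at 3777090, in an interval of 1848 bp, with a signal of 567.0 and ranks of 1385, 1811 and 2805. A second intronic summit at 3775923 had 401.4. Another pair of intronic summits had 253.2 and 204.1, and at a promoter inside bowl the signal was 313.2, with ranks of 3598, 9976 and 3551 that put replicate 2 far below the others. Upstream of bowl, summits 503 and 302 bp away shared an interval and had 402.4 and 321.5. Of the 9 summits, 2 lay downstream at the promoter region of bark, with 519.2 and 203.0. drm (FBgn0024244, 2L, 3539247 to 3548423, plus strand) had 5 summits, the strongest 656 bp past its 3' end with a signal of 535.9. That one was also the most variable strongest summit by spread of ranks, at 1190, 2333 and 4606. The summit 594 bp upstream of drm had 374.7 and steadier ranks of 3797, 2926 and 3305. The 2 summits within 500 bp of drm TSSs inside the gene were weak, at 193.9 and 160.7, held no forkhead word and lay among the 9531 strongest regions of only 1 replicate each, replicate 3.

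odd itself (FBgn0002985, 2L, 3604224 to 3606756, minus strand) lies 55800 bp from drm and had 3 summits, all intergenic and all with the forkhead word. They lay 5259 and 2218 bp upstream and 4513 bp downstream, with signals of 345.2, 295.7 and 249.6. The strongest ranked 3893, 3413 and 4805, and the downstream one 5479, 6065 and 12295. odd had the lowest strongest signal of the 10 genes, at percentile 47.0 of all protein-coding genes. That percentile ranks genes without a summit below all others. Among the 69.4% of protein-coding genes with a summit within 10 kb, the median strongest signal was 564.4, above the 345.2 of odd.

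The hindgut genes byn and cad had their strongest summits inside the gene. In byn (FBgn0011723, 3L, 11927693 to 11935919, plus strand) these were intronic at 11932850 and 11930039, with signals of 403.7 and 365.1. The first ranked 3137, 3776 and 2897 and the second 5119, 3423 and 2540, so their ranges overlapped. byn lies within the longer gene CG44837 on the other strand, so these summits are intronic for both. The remaining one, 9210 bp upstream and also within CG44837, had 177.8. In cad (FBgn0000251, 2L, 20770731 to 20783135, plus strand) the intronic summit at 20780951 had the highest signal of all 49, 923.9, in an interval of 1181 bp. It ranked 348, 871 and 1110, highest in replicate 1. The other 3 cad summits were weaker, with 303.0 at the promoter, 135 bp from the TSS, and 216.5 and 163.2 in introns.

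In the order of all protein-coding genes by their strongest summit within 10 kb, Pomp and vari share the cad summit. The next distinct value above was 924.8, at LamC and ttv, and the next below 923.6, at Rpe, boca and Vps13. cad thus stood at percentile 84.7 by strongest signal and at 74.6 by its 4 summits. These percentiles also count the genes without a summit, which rank below all others.

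bin, itself a forkhead gene (FBgn0045759, 3L, 6990622 to 6994447, plus strand), had 3 summits. A pair 1449 and 1249 bp upstream had signals of 575.9 and 438.3 and no forkhead word within 50 bp. The first ranked 2820, 1135 and 1547 and the second 3868, 1135 and 1547, since in replicates 2 and 3 both summits fell in 1 region. The remaining one lay in an intron of the downstream gene Mp, 5739 bp past the end of bin, with 329.1 and the word.

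Ordered by the mean rank of their strongest summit over the replicates, the genes ran from GATAe at 653 ± 209 (SD, n = 3) and cad at 776 ± 390 (SD, n = 3) to byn at 3270 ± 454 (SD, n = 3) and odd at 4037 ± 707 (SD, n = 3). Between them stood srp at 1053 ± 347, nub at 1717 ± 408, bin at 1834 ± 878, bowl at 2000 ± 729, esg at 2254 ± 1052 and drm at 2710 ± 1739 (SD, n = 3 each). In each of the 9 neighbouring pairs of this order the replicate ranks overlapped, so neighbours were not told apart. The ranks of GATAe, cad and srp did not overlap those of byn or odd. The strongest summits of cad and byn lay in the gene body, while those of GATAe, srp and odd lay outside it. For GATAe and srp the separation thus depends on counting summits outside the gene. The first place of GATAe depends on the summit 106 bp from the pnr TSS. In the gene body alone the strongest signals of GATAe and srp, 332.6 and 292.7, were below the 403.7 of byn, and odd had no summit. All 10 strongest summits lay among the 9531 strongest regions in every replicate. Of the 49 summits, 36 did so (73.5%, 58.9% to 85.1%), against 72.9% of all optimal peaks. Another 9 did in 2 replicates and 4 in 1. Replicate 1 gave the best rank for 22 of the 49, replicate 2 for 13 and replicate 3 for 14, against 3846, 3116 and 2569 of all 9531 optimal peaks, where replicate 1 also led. The optimal list was itself made from these replicates, so this agreement is partly built in. The middle value over the 49 of the ratio between worst and best replicate rank was 1.81, and 1.85 over all optimal peaks.

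**Figure D2:**
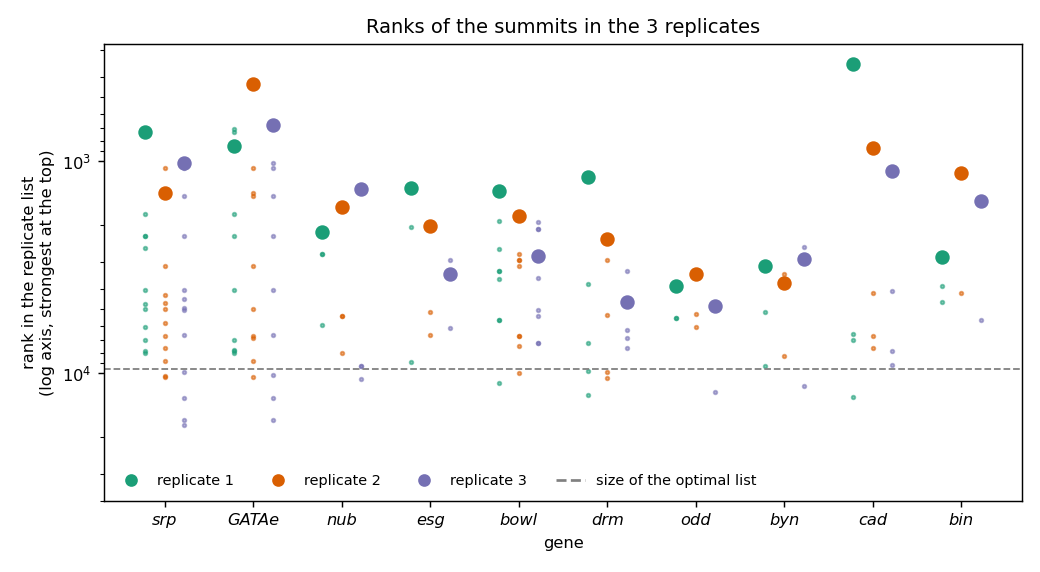
Rank of each summit in each replicate list of 30000 regions (log axis, strongest at the top) by gene, with large points for the strongest summit of the gene, small points for the others and a dashed line at rank 9531, the size of the optimal list. The large points all lie above the line, from 348 for cad to 4805 for odd.

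All 10 genes thus had at least 3 summits, a threshold chosen after the counts were seen, against the 41.2% of protein-coding genes given above. The 10 genes are long, with a median of 9603 bp against 2164.5 bp over all protein-coding genes, and 7 of them fall in the longest of the 5 length classes. That class had a median of 3 summits per gene, and the median over the 10 genes was 4. The median of their strongest signals, 569.4, was close to the 564.4 over all protein-coding genes with a summit. No test was made of these differences, since the list was not drawn independently of earlier results.

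The pooled list, called on the 3 replicates together and not filtered for reproducibility, held 84 further distinct regions in reach of the 10 genes. cad had 14 of them, srp 13, drm 12 and nub 11, while bin had 7, GATAe 6, and esg, bowl and odd 5 each, with 8 at byn. Over the whole data the regions outside the optimal list also outnumber the peaks in it, with 17575 against 9531. srp had 13 of each, and GATAe and bowl had fewer outside the list than in it.

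**Figure D3:**
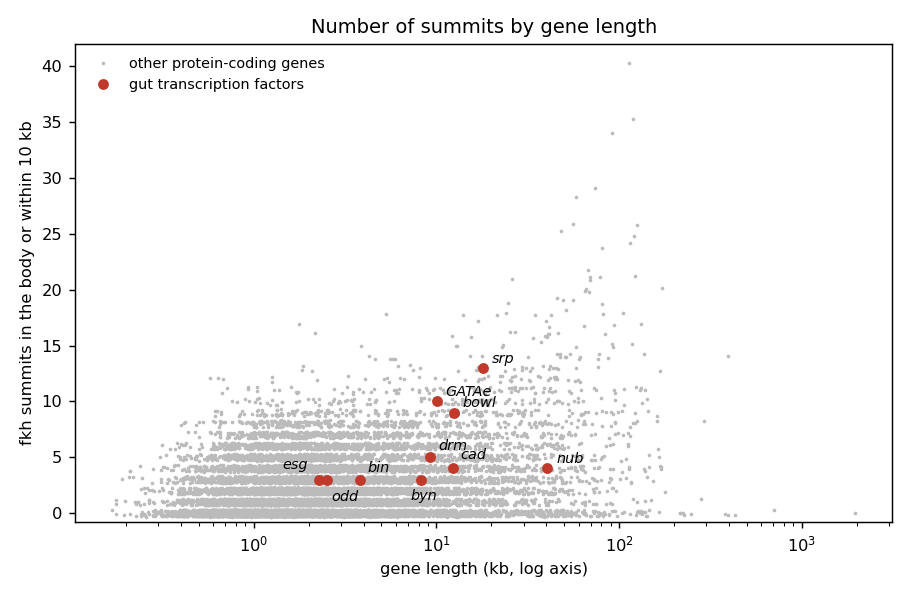
Number of fkh summits in the body or within 10 kb of each protein-coding gene against gene length in kb (log axis), with the gut transcription factors in red and other genes in grey, spread vertically at random by up to 0.3 for display. srp, GATAe and bowl stand high for their length with 13, 10 and 9 summits, while byn and nub had 3 and 4. Of the srp and GATAe summits, 8 count for both genes.

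Of the 10 genes, 7 had a summit within 1000 bp of 1 of their TSSs, against 31.1% of all protein-coding genes, and odd, byn and bin had none. By position, 14 of the 49 summits were at promoters, within 500 bp of any TSS (28.6%, 16.6% to 43.3%), against 44.4% of all optimal peaks. Introns held 17 (34.7%, 21.7% to 49.6%), against 40.2%, and intergenic sequence 15 (30.6%, 18.3% to 45.4%), against 11.6%. Of the others, 1 lay in a 5' UTR (2.04%), against 1.23% of all optimal peaks. Another 2 lay in exons of a non-coding gene (4.08%), against 0.839% in exons outside UTRs and coding sequence. Coding sequence held 0 of the 49 (exact upper bound 7.25%), against 0.409% of all optimal peaks. Counted once for each gene in reach, 28.1% of 57 pairs of gene and summit were intergenic, against 7.01% of the 36230 pairs of all protein-coding genes. Promoters held 29.8% of these 57 pairs (18.4% to 43.4%), against 59.6% (59.1% to 60.1%). Over summits the exact intervals did not overlap for the intergenic share, 18.3% to 45.4% against 10.9% to 12.2%, nor, by a narrow margin, for the promoter share, 16.6% to 43.3% against 43.4% to 45.4%. Summits of 1 gene are not independent of each other, and these differences were not tested. The median distance to the nearest TSS of any gene was 1249 bp for the 49 summits and 727 bp for all optimal peaks.

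**Figure D4:**
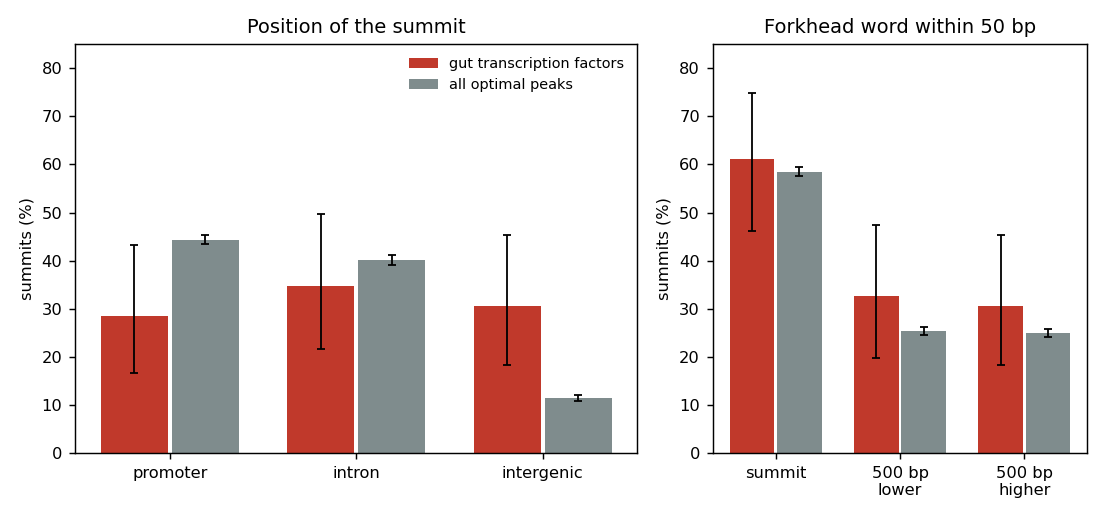
Share of summits (%) by position on the left, and with a forkhead word within 50 bp of the summit or of points 500 bp to either side on the right, for the 49 summits at the gut transcription factors in red and all 9531 optimal peaks in grey. Bars start at 0 and lines are exact 95% intervals; the intergenic bars, 30.6% and 11.6%, are the ones whose intervals lie farthest apart.

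The forkhead word lay within 50 bp of 30 of the 49 summits (61.2%, 46.2% to 74.8%), against 58.5% of all optimal peaks and 41.7% of the 17575 regions of the pooled list that the optimal list left out. At points 500 bp to either side of the same summits it was found in 32.7% and 30.6% of windows, against 25.4% and 25% for all optimal peaks. Summits away from promoters held it in 24 of 35 cases (68.6%, 50.7% to 83.1%) and promoter summits in 6 of 14 (42.9%, 17.7% to 71.1%). The intervals overlap, and the same shares over all optimal peaks were 64.2% and 51.4%. At esg, odd and byn all 3 summits of each gene held the word, and at nub 1 of 4 and at bin 1 of 3. Windows with at least 4 words were 3 of the 49 (6.12%), at odd and between srp and GATAe, against 1.95% of all optimal peaks.

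Words of the kinds that the encoded factors bind were also counted, and for each of them the exact interval at the 49 summits includes the share over all optimal peaks. The GATA word, NGATAN with A or T first and A or G last, was at 10 of the 49 summits (20.4%, 10.2% to 34.3%), against 22.0% of all optimal peaks. These were 3 summits at srp, of which 1 also counts for GATAe, and 2 each at bowl, drm and cad, with 1 at nub. The Caudal word, TTTATNN with G or T at position 6 and A or G at position 7, was at 9 (18.4%, 8.76% to 32.0%), against 14.0%, and at none of the cad summits. The POU octamer ATGCAAAT was at 1 (2.04%), against 1.90%, and not at nub. The T-box half-site GGTGTGA and the Snail-type E-box CAGGTG were at 0 of the 49 (exact upper bound 7.25%), against 1.18% and 3.61% of all optimal peaks. All words were searched on both strands, and the Caudal and forkhead words can overlap.

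Among 25 other regulators of the gut, 19 had a summit in the body or within 10 kb (76.0%, against the 69.4% of protein-coding genes) and 13 within 1000 bp of a TSS (52.0%, against 31.1%). All 4 genes of the foregut and proventriculus had one. The signalling gene hh led with a signal of 1486.7, at a summit nearest to the TSS of CG31365. Then came the odd-skipped relative sob at 473.1, at a summit nearest to the TSS of lncRNA:CR43822. The homeodomain gene dve had 373.6 and the Wnt gene wg 363.1. Of the endoderm and midgut genes, 3 of 4 had one, namely the GATA gene GATAd at 1377.5, the Hox gene lab at 682.3 and the zinc finger gene hkb. The hkb summit, at 218.6, was nearest to the TSS of CG1103, and tll had none. The 3 hindgut genes all did, with lin at 1189.8, nearest to the TSS of Spt, the Sox gene D at 889.2 and the homeodomain gene en at 678.6.

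In the visceral mesoderm 3 of 4 had a summit (75.0%, against the 69.4% of protein-coding genes). These included the T-box gene org-1 at 397.1 and the homeodomain gene tin at 306.0, and bap had none. Of 10 genes of gut cell types 6 did (60.0%, below the 69.4% of protein-coding genes). They were led by zfh2 at 1383.9, mirr at 962.2, the nub paralog pdm2 at 961.6, nearest to the TSS of PICK1, and Ptx1 at 936.2. The 4 without were pros, sc, ase and tap. pros is 79148 bp long and had none in the optimal list, with 5 regions in the pooled list. In its length class, the longest, 79.6% of protein-coding genes had a summit within 10 kb.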

How the data were processed

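ChIP-seq of fkh-GFP in whole prepupae was read from the peak lists that the authors deposited on the dm6 build. Per the deposited file lists, each of the 3 replicates was called against the same control, a pooled list was called on the 3 together, and the optimal list followed from a reproducibility (IDR) step. For the aligner, the caller and the threshold, the status is "not given in the sources used here". The signal score deposited by the authors has no named unit, so replicates were compared by rank, and sequencing depth is unknown. The dm3 lists were not used here.

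Summits were the region start plus the deposited offset, written 1-based. Genes came from Ensembl release 115 on the release 6 assembly. An optimal peak took the best rank among the replicate regions sharing at least 1 bp with it. A summit within 500 bp of a TSS was called promoter. Any other took the first that applied of 5' UTR, coding sequence, 3' UTR, other exon, intron or intergenic. Intervals are exact Clopper-Pearson at 95%. Counting functions were tested on simulated peaks. The genes, lists, words and alternatives were chosen with earlier results of these data known, and with 1 group no test between samples was made. Genes named are the 10, up to 4 others per role by strongest signal, and those next to cad in the order of strongest summits. pros, tll, bap, sc, ase and tap were named after their counts were seen. For the visceral mesoderm, 1 gene that this rule names is not reported here. Python 3.11.15, pandas 2.3.3, numpy 2.4.6, scipy 1.17.1 and matplotlib 3.10.9 were used.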

Additional observations from a re-analysis of the deposited data

How the results depend on the processing

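All 10 genes had a summit with windows of 5 kb (against 56.5% of protein-coding genes) and 20 kb (against 82.9%), in the strongest 4766 peaks (against 57.6%) and in the pooled list (against 78.0%). All 10 also had one with any summit dropped that was within 300 bp of a higher one (against 69.4%), without any 1 replicate (against 64.8% to 65.2%) and with each summit given to its nearest protein-coding gene (against 28.1%). Several of these outcomes were fixed beforehand and add no support. A 20 kb window can only add summits. The pooled list held a summit with the same strongest signal at each of the 10 genes. Dropping a summit close to a higher one leaves the higher one in place. The strongest summits of the 10 genes stood at place 3802 or better by signal, so the strongest 4766 peaks kept them. All 10 also lay among the 9531 strongest regions of every replicate, so leaving out a replicate could not remove them. In the gene body alone 7 had one, against 19.8%. The 49 distinct summits became 22 in bodies alone, 29 in the strongest 4766 peaks and 154 in the pooled list, and 37 to 42 with 1 replicate left out. Of the 25 other regulators, 12 had a summit in the body. The count within 1000 bp of a TSS ran from 6 in the strongest 4766 peaks, against 20.9% of protein-coding genes, to 9 in the pooled list, against 43.3%. The forkhead share of 61.2% became 34.7% within 25 bp and 79.6% within 100 bp, and was 60.5% to 64.9% with a replicate left out. For the narrower word TGTTTNN with A at position 6 and C or T at position 7 it was 18.4%. All optimal peaks had the narrower word at 20.6%. At points 500 bp to either side it was in 14.3% and 4.08% of the 49 windows, against 5.91% and 5.93% for all optimal peaks. Shares over all optimal peaks were not counted within 25 or 100 bp, nor for the overlap and region settings that follow. The share of summits among the strongest regions of all replicates became 40.8% with 50% of each region shared, 36.7% with 4766 regions per replicate and 100% with all 30000, and 75.5% to 85.7% with 1 replicate left out. Leaving out a replicate means asking for the 9531 strongest regions of both others, within an optimal list still made from all 3 replicates. drm then had 3 summits, against 5, whichever replicate was left out. Over 100 repeats for single genes, the number of summits moved by over 1.5 times in 29 and the strongest signal in 7, all 7 in the gene body alone (every gene but bowl, byn and cad). The position classes moved within their wide intervals. With promoters taken as 250 or 1000 bp from a TSS, the promoter share was 18.4% or 40.8%. The intron share was then 38.8% or 32.7%, and the intergenic share 34.7% or 24.5%. The shares over all optimal peaks were not counted at these 2 settings, so the differences from them were checked at 500 bp only. No paired analysis was possible because there is 1 group. Unknown depth limits every count of weak summits.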
